A study of Homo sapiens with 4 samples.

Results

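Among the FLI1 peaks of SK-N-MC Ewing sarcoma cells, 978 of 36305 (2.69%, 95% interval 2.53 to 2.87) held a perfect tandem run of at least 4 copies of GGAA, or of TTCC when read on the other strand. The members were picked by sequence alone from the deposited FLI1 peaks on chromosomes 1 to 22 and X of hg19, so their FLI1 signal and their repeat are the selection and not a result. Most of these repeat peaks lay outside protein-coding genes, and most carried acetylated chromatin, but only 374 of the 978 did both. H3K27ac is acetylation of lysine 27 on histone H3 and a mark of active enhancers and promoters. It met 63.3% of the repeat peaks against 28.4% of all FLI1 peaks. The acetylation lay beside the repeat more often than on it. Peaks of SSRP1 met 21.9% of them against 17.2% of all FLI1 peaks, and were fewer than in other FLI1 peaks of similar width and acetylation.

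Ewing sarcoma is driven by EWS-FLI1, a fusion of EWSR1 with the DNA-binding part of the ETS factor FLI1. FLI1 itself binds single ETS sites, whereas the fusion is known also to occupy long GGAA microsatellites and to turn many of them into enhancers. SSRP1 and SUPT16H form FACT, a chaperone that takes apart and rebuilds nucleosomes.

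The series concerns inhibition of FACT in Ewing sarcoma. It holds 4 ChIP-seq libraries of SK-N-MC, an established line of this tumour, 1 each for FLI1, SSRP1, H3K27ac and the input, and their labels name no treatment. Chromatin was cut with micrococcal nuclease and then sonicated. With 1 library per target there is no replicate check and no p-value, and each interval given is a 95% exact binomial (Clopper-Pearson) interval, or that of an odds ratio, that covers counting error only. The deposited lists hold positions without heights, and read depth is unknown here. Whether the FLI1 antibody separates the fusion from FLI1 itself was not tested.

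A repeat peak is called here by the protein-coding gene whose start lies nearest. KDSR, SOX6 and FCGRT are genes that EWS-FLI1 is known to activate. KDSR encodes an enzyme of sphingolipid synthesis, SOX6 a transcription factor and FCGRT the neonatal Fc receptor. MYO10 encodes a motor protein of filopodia and had the longest run of any member, 32 copies. DPF3, a subunit of the BAF chromatin remodelling complex, and GPAT3, an enzyme of triglyceride synthesis, are the members with the longest runs among the few that had SSRP1 on the run. The runs of SOX6, FCGRT and DPF3 lay in introns of those genes. Those of KDSR, MYO10 and GPAT3 were intergenic, which here means outside protein-coding genes.

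The runs were mostly long. The longest run of a peak had a median of 12 copies or 48 bp, with quartiles of 10 and 15 copies and a maximum of 32. It had at least 10 copies in 750 peaks (76.7%), and 4 to 6 copies in only 98 (10.0%). A single run lay in 665 peaks (68.0%), 2 runs in 232, 3 in 58 and 4 or more in 23. In all 313 peaks with several runs, every run lay on the same strand. Neighbouring runs in a peak were a median of 16 bases apart, and 34.9% of 450 such pairs were separated by at most 4 bases, as an interrupted repeat is. These lengths are those of the reference genome, and the number of copies that SK-N-MC carries was not measured.

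Runs of this kind are rare, and occupied ones form a minority of them. A run of at least 4 copies lay in 0.138% of 9452233 windows of 300 bases across hg19. It lay in 0.731% of H3K27ac peaks and in 0.0907% of SSRP1 peaks, whose median widths were 653 and 403 bp. Wider intervals have more room for a run, and these shares were not adjusted for width. Of 16275 such runs in hg19, 1418 (8.71%, interval 8.28 to 9.16) lay in a FLI1 peak. The share was higher for longer runs. It was 3.99% of runs of 4 to 6 copies, 11.2% of 7 to 9, 304 of 1601 runs of 10 to 12 copies, 25.4% of 13 to 15, 36.5% of 16 to 18 and 46.3% (25 of 54, interval 32.6 to 60.4) of 19 or more. Of 3303 runs with at least 10 copies, 793 (24.0%, interval 22.6 to 25.5) lay in a FLI1 peak, so 2510 did not.

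**Figure D1:**
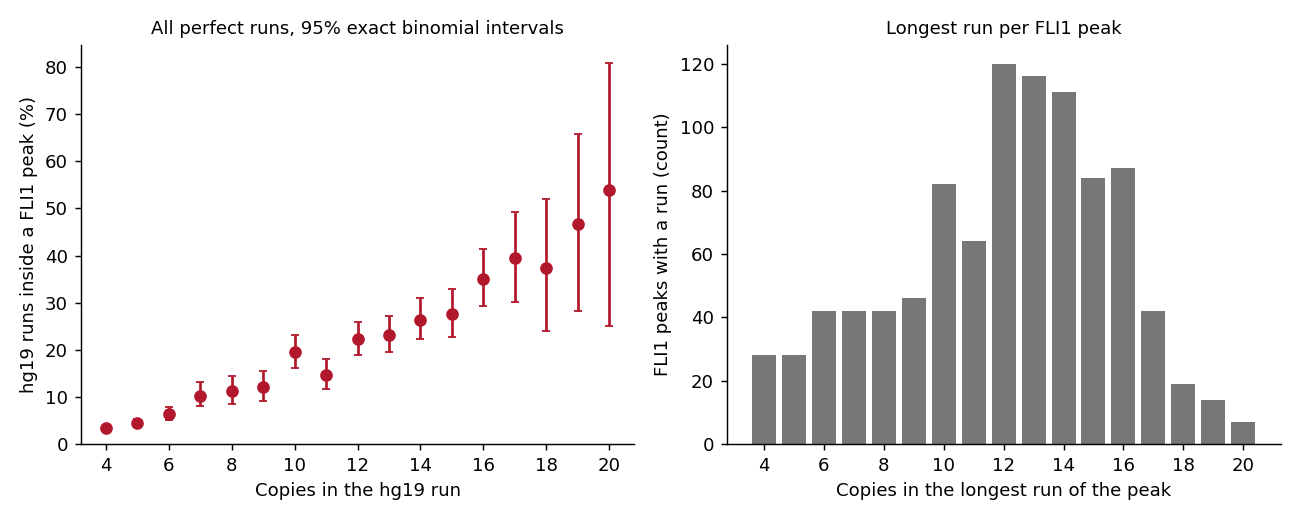
Share of perfect hg19 runs inside a FLI1 peak by number of copies, with 95% exact binomial intervals (left), and number of FLI1 peaks by the copies in their longest run (right), both up to 20 copies. The share was 3.34% at 4 copies, 19.5% at 10 and 35.1% at 16, with wide intervals above 17 copies because few such runs exist.

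Some of the longest runs lay outside the FLI1 list. The 10 longest runs outside every FLI1 peak were nearest to CNTN6 (39 copies), ABCC4 and ANXA2R (37 each), SHROOM4 (35), KCTD3 (24), VWA3A (23), EMSY (21) and NEGR1, HECTD4 and SMCHD1 (20 each). CNTN6, a neural cell adhesion gene, had its run 2158 kb from the nearest FLI1 peak. HECTD4 had its run 1 bp from one. Of the 2510 runs of at least 10 copies outside FLI1 peaks, 217 (8.65%) had a FLI1 peak within 500 bp, and 37 had FLI1 peaks within 500 bp on both sides. Counting these, 1010 (30.6%) of the 3303 lay in a FLI1 peak or within 500 bp of one, and the share was again higher for longer runs, from 6.81% of 4 to 6 copies to 50.0% of 19 or more. How reads that match a repeat in several places were placed is not stated in the sources, and its part in these shares, and in the marks on a run, was not tested.

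Compared with other FLI1 peaks, the repeat peaks were wider and farther from genes. Their median width was 484.5 bp against 281 bp. It was 354 bp for longest runs of 4 to 6 copies, 489.5 bp for 10 to 12 and 592 bp for 19 or more. A wider peak has more room to hold a run, so width is tied to the selection. The part of the selection in these widths was not tested. Only 58 repeat peaks lay within 2.5 kb of a transcription start site (TSS), taken over protein-coding genes (5.93%, interval 4.53 to 7.60) against 18.6% of the 35327 others, and the median distance was 48.0 kb against 25.8 kb. By the centre of the longest run, 615 (62.9%) were intergenic, 359 (36.7%) intronic and 4 in a UTR. Only protein-coding genes were used here, so a run inside a non-coding gene counts as intergenic. An ETS core (CCGGAAG or CCGGAAA, both strands), which shares GGAA with the run, was held by 45 repeat peaks (4.60%) and by 8.66% of the others. The repeat peaks were wider, but the others were nearer to TSSs and richer in G and C (median 54.8% against 50.0%). The parts of TSS distance and base content in this difference were not tested. Within genes, the GGAA strand was the sense strand of the host in 109 of 361 cases (30.2%, interval 25.5 to 35.2). Runs of at least 10 copies outside FLI1 peaks had a like share (277 of 801, 34.6%, 31.3 to 38.0).

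At the edge of the selection, peaks whose longest run had exactly 4 copies (28 peaks) had a median width of 371 bp, and those with exactly 3 (50 peaks, not members) one of 386.5 bp. H3K27ac met 15 of the former and 27 of the latter, and SSRP1 met 5 and 14.

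H3K27ac was measured in its own library and was not used to choose the members. It met 619 of the 978 repeat peaks (63.3%, interval 60.2 to 66.3), where a peak met a mark when the overlap covered at least 20% of either peak. That share was 27.4% (26.9 to 27.9) among other FLI1 peaks. Both acetylation and the repeat went with wide FLI1 peaks, so peaks were compared within 5 width classes and by the presence of a TSS within 2.5 kb. The Mantel-Haenszel odds ratio for H3K27ac, repeat peaks against others, was then 3.30 (interval 2.81 to 3.88), and without the width classes 6.80 (5.92 to 7.80). Away from TSSs, H3K27ac met 15.9% of repeat peaks up to 300 bp wide against 10.4% of others, 72.4% against 34.3% at 401 to 600 bp, and 99.3% against 74.1% above 900 bp. Within 2.5 kb of a TSS there were 58 repeat peaks, too few to tell most classes apart. H3K27ac met 42 of them (72.4%, interval 59.1 to 83.3) against 70.5% of others. By width it met 1 of 5 against 58.8% up to 300 bp, 3 of 8 against 71.0% at 301 to 400 bp, and 15 of 22 (68.2%, 45.1 to 86.1) against 81.7% at 401 to 600 bp. It met all 7 of 601 to 900 bp and all 16 above, against 90.4% and 96.7%. Looking up to 1 kb beyond the peak widened the difference among the narrowest peaks away from TSSs, where 62.8% (103 of 164, interval 54.9 to 70.2) of repeat peaks and 13.4% (12.9 to 13.9) of others had H3K27ac.

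**Figure D2:**
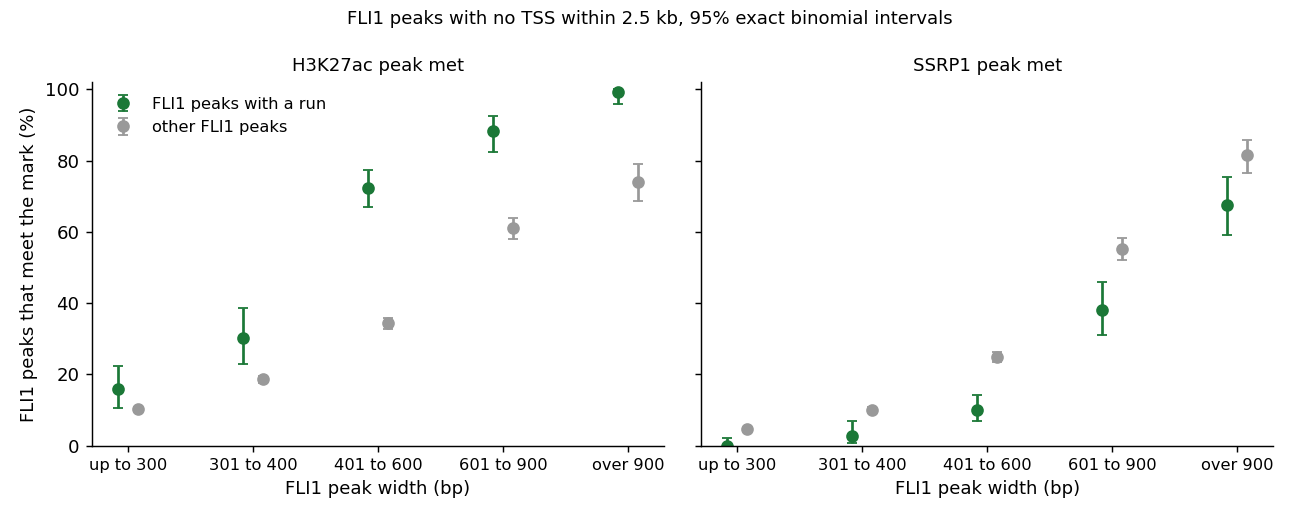
Share of FLI1 peaks away from TSSs that met an H3K27ac peak (left) or an SSRP1 peak (right), by FLI1 peak width, for peaks with a run (green) and others (grey), with 95% exact binomial intervals. Repeat peaks were above the others for H3K27ac and below them for SSRP1 in each of the 5 width classes.

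Among the repeat peaks, acetylation was more frequent with more copies up to 15. H3K27ac met 49.0% (interval 38.7 to 59.3) with a longest run of 4 to 6 copies, 57.7% with 7 to 9, 62.0% with 10 to 12, 70.7% (65.3 to 75.7) with 13 to 15, 63.5% (55.2 to 71.3) with 16 to 18 and 68.0% (17 of 25, 46.5 to 85.1) with 19 or more. Longer runs also had wider FLI1 peaks. Among peaks of 401 to 600 bp the same 6 shares were 78.3%, 71.4%, 72.2%, 71.9%, 69.5% and 77.8% (7 of 9), with no rise. Runs of at least 10 copies had H3K27ac on them or within 1 kb in 83.0% (80.2 to 85.5) of 793 cases inside FLI1 peaks and in 20.0% (18.5 to 21.6) of 2510 outside. A TSS lay within 100 kb of 67.0% of the former and 56.7% of the latter.

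SSRP1 gave the opposite picture once width and acetylation were taken into account. It met 214 repeat peaks (21.9%, interval 19.3 to 24.6) and 17.1% (16.7 to 17.5) of other FLI1 peaks. Away from TSSs the shares were 21.1% (18.5 to 23.9) and 10.8% (10.4 to 11.2), and within 2.5 kb of one 34.5% (22.5 to 48.1) and 44.8% (43.6 to 46.0). Of the 214, 210 also met H3K27ac, which left 4 with SSRP1 alone, 409 with H3K27ac alone and 355 with neither. Both marks thus met 21.5% of repeat peaks and 13.7% of all FLI1 peaks. The shares were 0.409% and 3.54% for SSRP1 alone, 41.8% and 14.7% for H3K27ac alone, and 36.3% and 68.1% for neither. Within classes of width and TSS, the odds ratio for SSRP1 was 0.362 (interval 0.295 to 0.444), and with H3K27ac as a further class it was 0.190 (0.151 to 0.238). With TSS and H3K27ac classes but none of width it was 0.649 (0.547 to 0.769), so the size of this difference depends on holding width alike. Among acetylated peaks away from TSSs, SSRP1 met 13.5% (29 of 215) of repeat peaks and 50.6% of others at 401 to 600 bp, and 68.1% against 91.5% above 900 bp. In the narrowest class SSRP1 met 0 of 164 repeat peaks (upper bound of the interval 2.22%) and 4.51% of others. Within 1 kb of the peak, SSRP1 lay at 18.5% (14.3 to 23.4) of repeat peaks and 32.2% (30.6 to 33.7) of others at 401 to 600 bp. In the narrowest class it lay at 11.0% (18 of 164, 6.64 to 16.8) of repeat peaks and 8.22% (7.82 to 8.64) of others, and those intervals overlap.

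Both marks left the repeat itself bare in most cases. An H3K27ac peak covered at least 1 base of the longest run in 168 of 978 repeat peaks (17.2%, interval 14.9 to 19.7). In 464 (47.4%) it lay within 1 kb on both sides without touching the run, in 149 on 1 side, and in 197 (20.1%) on neither. SSRP1 covered the run in 16 (1.64%, 0.938 to 2.64), lay on both sides in 51, on 1 side in 232 (23.7%) and on neither in 679 (69.4%). Where H3K27ac flanked the run on both sides, its peaks were a median of 359 bp apart, and flanking SSRP1 peaks were 512 bp apart. At the centre of the FLI1 peak, H3K27ac was present in 464 of 619 acetylated repeat peaks (interval 71.4 to 78.3%) against 95.2% of acetylated others, and SSRP1 in 52.8% against 83.6% of those that met it. The centres were not compared within width classes. Repeat peaks were wider, and a mark can overlap a wide peak without reaching its centre, so the part of width in this difference was not tested.

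**Figure D3:**
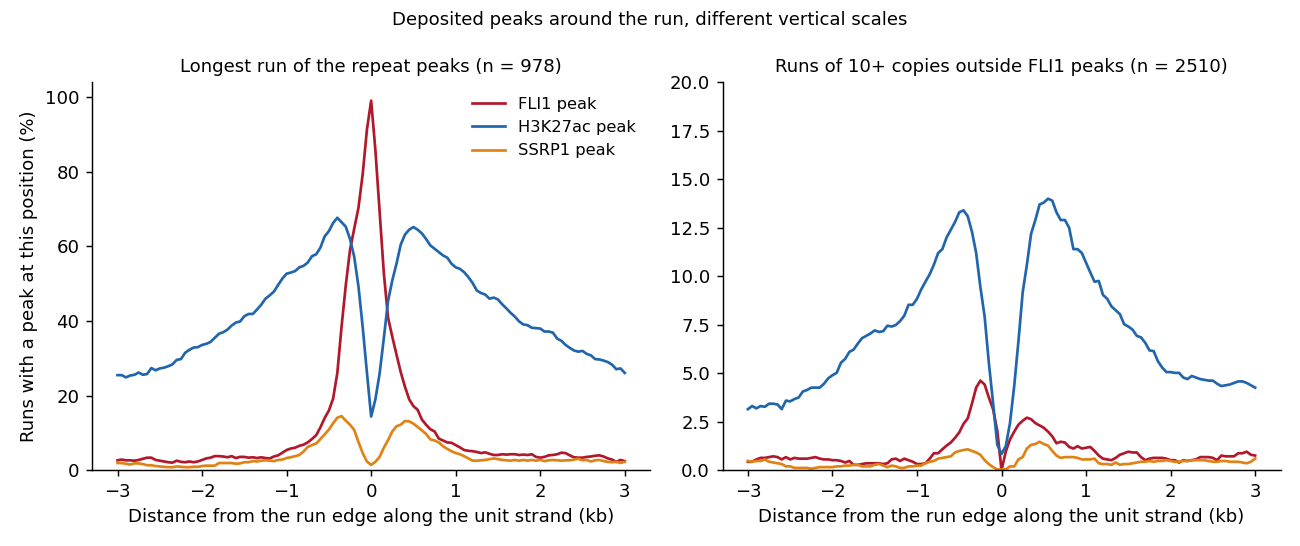
Percentage of runs with a deposited FLI1, H3K27ac or SSRP1 peak at each position within 3 kb of the run, read along the strand that carries the unit, for the longest run of the 978 repeat peaks (left) and for the 2510 runs of at least 10 copies outside FLI1 peaks (right, on a smaller vertical scale). Over repeat peaks H3K27ac was at 67.7% 400 bp before the run, 14.4% at the middle of the run (plotted at 0, other distances are from its edges) and 65.2% 500 bp after it, and outside FLI1 peaks it dipped from 13.3% 500 bp before to 0.837% at the run.

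Runs outside FLI1 peaks were mostly bare as well. Outside FLI1 peaks, of runs that had H3K27ac on them or within 1 kb, it covered the run in 41.3% with 2 copies, 20.7% with 3, 15.4% with 4 to 6, 9.55% with 7 to 9 and 5.58% (interval 3.74 to 7.96) with 10 or more. Inside FLI1 peaks the shares were 61.6%, 29.2%, 23.2%, 14.0% and 22.2% (19.1 to 25.6). Flanking H3K27ac peaks stood a median of 530 bp apart around runs of at least 10 copies outside FLI1 peaks (291 runs). The median of 359 bp for repeat peaks included shorter runs, so the 2 sets differ in copies. For SSRP1 inside FLI1 peaks the shares fell from 41.6% with 2 copies to 3.57% with 10 or more. In each of these series, every class of 3 or more copies was covered less often than runs of 2, and how uniquely reads can be placed on them was not measured.

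The repeat peaks were lopsided along the GGAA strand. The FLI1 peak reached a median of 293 bp before the run and 157.5 bp after it, and farther before it in 577 of 978 (59.0%, interval 55.8 to 62.1), with 58.2% where GGAA was on the plus strand and 59.8% on the minus strand. Close to the run, H3K27ac leaned to the same side. Where it flanked the run on both sides, it was nearer before the run in 285 of 464 (61.4%, 56.8 to 65.9), at a median of 117 bp against 172.5 bp after it. Farther out the lean was not seen. H3K27ac was at 59.7% of the 978 runs 600 bp before them and at 63.5% 600 bp after. At 1000 bp the shares were 52.7% and 54.4%. Around the 291 flanked runs of at least 10 copies outside FLI1 peaks it was nearer before the run in 55.3% (49.4 to 61.1), at 210 bp against 218 bp. The 464 flanked runs of repeat peaks included shorter ones, so these sets differ in copies. The sequence was lopsided too, with 73.7% purines in the 100 bases before the run of repeat peaks and 66.7% in those after it. For runs of at least 10 copies these shares were 73.7% and 65.6% in FLI1 peaks, and 77.0% and 74.5% outside them. The part of that difference in the peaks' position was not tested.

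The 40 genes that EWS-FLI1 is known to activate, a list taken from general knowledge of the field, had repeat peaks nearby more often than genes at large. A repeat peak lay within 100 kb of a TSS of 18 of them (45.0%, interval 29.3 to 61.5) against 7.61% of 20098 protein-coding genes. Several of these genes are known in the field because of their repeats, so the list is not independent of the repeat. Many of the 40 had already been named in an earlier account of these data, so the list is not independent of the data either. A run of at least 10 copies, occupied or not, lay within 100 kb of 31 of the 40 against 19.3% of all genes. Among 20 genes known to be repressed by EWS-FLI1 or to mark mesenchymal cells, such as TGFBR2 and THBS1, 0 had a repeat peak within 100 kb (interval up to 16.8%), and 3 had a run of at least 10 copies. Olfactory receptor genes, mostly silent outside the nose, had a repeat peak within 100 kb in 13 of 414 cases (3.14%, 1.68 to 5.31).

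Near TSSs of activated genes, the repeat peaks differed in their marks. FCGRT had the widest repeat peak of all, 2668 bp over a TSS, with 12 copies in the longest of 3 runs. H3K27ac flanked that run at 58 bp before and 235 bp after, and SSRP1 began 386 bp after it. STEAP2, which encodes a metalloreductase, had a run of 17 copies in a peak 3175 bp from a TSS, flanked by H3K27ac on both sides with no SSRP1 within 1 kb; the same peak lay 53.6 kb from a TSS of its neighbour STEAP1, a surface protein of Ewing cells. ABHD6, a lipid hydrolase gene, had a run of 13 copies at 6188 bp, again with H3K27ac on both sides and no SSRP1 within 1 kb. SOX6 had a peak at 6708 bp that met both marks. KDSR had a run of 16 copies in a narrow peak of 268 bp at 10.2 kb, which met neither mark although H3K27ac lay within 1 kb on both sides. XG is a blood group gene, and CD99 encodes the surface antigen used to diagnose Ewing sarcoma. They lie partly or wholly in the region of chromosome X that is duplicated on chromosome Y. XG had a run of 10 copies in a 988 bp peak at 12.8 kb, and CD99 one of 13 copies in a 227 bp peak at 25.9 kb.

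Farther from TSSs, PAX7, a transcription factor gene used as an Ewing marker, had 3 repeat peaks within 100 kb, with 18 copies at 19.3 kb, 14 copies at 35.8 kb and 13 copies at 90.2 kb, all meeting H3K27ac and only the third SSRP1. The third was nearest to KLHDC7A. PRKCB, a protein kinase C gene, had runs of 13 and 12 copies at 30.9 and 66.7 kb inside the gene. Both peaks met H3K27ac, and the one at 30.9 kb also met SSRP1. NKX2-2, a homeobox gene of Ewing cells, had runs of 9 copies at 41.6 kb and 20 copies at 61.9 kb. The longer one was flanked by both marks but met neither by the 20% rule. PPP1R1A, a phosphatase inhibitor gene, had 14 copies at 36.1 kb under H3K27ac. That peak also met SSRP1 and was nearest to LACRT. EZH2, the methyltransferase of Polycomb complex PRC2, had an intronic run of 13 copies at 44.3 kb between H3K27ac peaks, and its cofactor JARID2 had 12 copies at 60.4 kb under H3K27ac. FOCAD had 16 copies at 30.2 kb with neither mark within 1 kb. TNC, which encodes the matrix protein tenascin C, had 6 copies at 21.3 kb between H3K27ac peaks.

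At 14 activated genes without a repeat peak within 100 kb, a run of at least 10 copies lay in that distance but outside the FLI1 list. The nearest such run had H3K27ac within 1 kb at 10 of them, and not at SOX2, VRK1, AURKA and EGR2. NR0B1, an orphan nuclear receptor gene, has a reference run of 11 copies 1368 bp from a TSS. A FLI1 peak covered another TSS of this gene, not that one. The nearest FLI1 peak was 1722 bp from the run, and H3K27ac began 226 bp from the run. CAV1, the caveolin gene, has 16 copies 1844 bp from a TSS, with H3K27ac on the run and the nearest FLI1 peak at 1366 bp. LIPI and RBM11, a lipase gene and an RNA-binding protein gene, share a run of 11 copies between them, with a FLI1 peak 151 bp from it and H3K27ac at 123 bp. GSTM4, a glutathione transferase gene, has 10 copies 1791 bp from a TSS with H3K27ac at 270 bp and the nearest FLI1 peak 14.3 kb away. CALCB and ADGRG2 have runs of 16 copies, with FLI1 peaks at 306 and 252 bp. SOX2 has 13 copies at 38.3 kb, and no H3K27ac peak lay within 36 kb of them. A member is therefore a FLI1 peak that covers at least 4 copies of a run, and a repeat with FLI1 only beside it is not counted.

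Over the whole set, the 978 repeat peaks were nearest to 847 genes, and 738 of these had 1 repeat peak. CD83, LRATD2, MYC and TNC were nearest to 4 each. CD83, a dendritic cell surface gene, had its 4 peaks with 10 to 15 copies at 33.6 to 380 kb, all with H3K27ac. MYC, the growth-promoting transcription factor, had 4 at 74.1 to 556 kb, of which 2 met H3K27ac. Only 16 neighbouring pairs of repeat peaks lay within 10 kb of each other.

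The 10 longest runs showed no single pattern. MYO10 (32 copies) had H3K27ac on the run and SSRP1 143 bp after it in a peak of 1381 bp, while NUP210L (28 copies) had a peak of 227 bp, the narrowest width in the list, with no H3K27ac or SSRP1 within 50 kb. DLGAP1 (27 copies), a synaptic scaffold gene, had H3K27ac 88 bp before and 74 bp after. C16orf82 (25 copies) had H3K27ac on the run at 345 kb from a TSS. The other 6 had 20 copies, as did 1 further member (7 in all) that the list of 10 leaves out by order of position. Of the 6, those near ACACB, ACER1 and BCAS4 met H3K27ac without SSRP1, that near DPF3 met both, and those near REEP3 and NKX2-2 met neither.

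SSRP1 on the run was found in 16 repeat peaks, of which 14 met H3K27ac. The 10 with the longest runs were nearest to DPF3 (20 copies), GPAT3 (19), ZNF703 (17), PNOC (16), TRIM62 (15), PTH2 and DNAL4 (14 each), LYSMD4 and CCDC188 (10 each) and TMPO (8). LYSMD4 and TMPO were those of the 10 that did not meet H3K27ac. Of the 58 repeat peaks within 2.5 kb of a TSS, 42 met H3K27ac and 20 met both marks. By run length the first 10 of the 20 included those at DPF3, RHOH, FEZF1, KCNN1, STAR, RAP1GAP, FCGRT, SLC1A4 and AMER2, with 20 to 11 copies. FEZF1, a zinc finger gene of forebrain development, had its TSS inside a peak of 1531 bp with a run of 16 copies at its edge, and KCNN1, a potassium channel gene, had H3K27ac on a run of 14 copies between SSRP1 peaks 37 and 49 bp away.

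The repeat peaks were spread more evenly over chromosomes than FLI1 peaks were. The density of FLI1 peaks per Mb was 32.2 for chromosome 8, 1.84 for 10 and 1.15 for X, and that of repeat peaks was 0.462, 0.305 and 0.205, with a range of 0.205 to 0.699 over all chromosomes. Repeat peaks were thus 1.44% of FLI1 peaks on chromosome 8, 16.5% (40 of 242, interval 12.1 to 21.8) on chromosome 10 and 17.8% (31 of 174, 12.4 to 24.3) on X. Of runs with at least 10 copies, 28.3% (22.1 to 35.1) were in a FLI1 peak on chromosome 8, 19.2% (13.4 to 26.3) on chromosome 10 and on X in 23 of 191 cases (7.79 to 17.5%), against a median of 25.2% over the 23 chromosomes. The number of copies of each chromosome in these cells was not measured, and its part in these values was not tested.

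**Figure D4:**
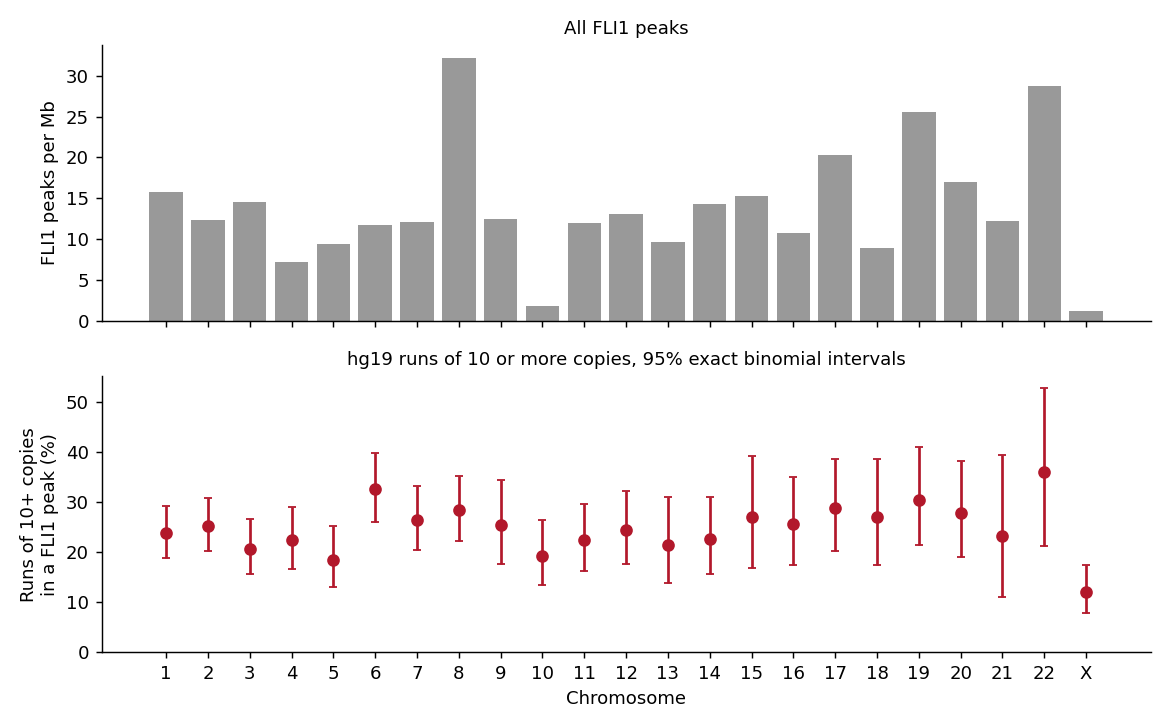
FLI1 peaks per Mb on each chromosome (top) and percentage of hg19 runs of at least 10 copies that lay in a FLI1 peak, with 95% exact binomial intervals (bottom). Chromosomes 10 and X had 1.84 and 1.15 FLI1 peaks per Mb, while the share of occupied runs was lowest on X and reached 35.9% on chromosome 22.

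The cell type was checked by H3K27ac within 2.5 kb of a TSS, which 57.9% of all protein-coding genes had. It lay at 8 of 8 Ewing sarcoma markers, among them NR0B1, NKX2-2 and CD99, and at 36 of the 40 activated and 10 of the 20 repressed genes. Of genes that mark other cells it lay at 2 of 7 for neuroblastoma (HAND2 and ISL1), 0 of 5 for skeletal muscle, 1 of 6 for blood (CD79A), 0 of 4 for endothelium, 1 of 4 for epithelium (KRT18) and 0 of 3 for liver, with intervals up to 70.8% for these short lists.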

How the data were processed

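SK-N-MC cells gave 1 ChIP-seq library each for FLI1, SSRP1 and H3K27ac, beside an input. Reads were aligned by the authors with Bowtie2 (default settings, hg19), and each library's peaks were called against the input with MACS2 at a q-value of 0.05, per the series' design text. The submitters' processing notes give MACS2 version 2.2.7.1 and list HOMER and deepTools as well. Filters on duplicate, multiply placed or artefact-region reads are not given in the sources used here.

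The deposited lists hold positions only, with no height, depth or score. Repeated intervals were counted once (38324 FLI1 lines gave 36539 peaks, of which 36305 lay on chromosomes 1 to 22 and X; SSRP1 19855, H3K27ac 37195). Peak ends lay within the GRCh37 chromosomes. A peak was a member when at least 4 whole copies of the unit lay inside it; 39 longest runs were cut by a peak edge. Had the whole run been required, 946 peaks would have been members, as the planned wording had it.

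A mark met a peak when the overlap was at least 20% of either. On a run means at least 1 base, beside means within 1 kb. Width classes ended at 300, 400, 600 and 900 bp. Odds ratios are Mantel-Haenszel with Robins-Breslow-Greenland intervals. Genes were GENCODE release 44 on GRCh37, with the TSSs of basic transcripts, and members are called by the nearest one. Named were the members with the 10 longest runs, those near activated genes, TSS members with both marks, those with SSRP1 on the run, genes nearest to 4 or more, the 10 longest runs outside FLI1 peaks, and genes of the lists. Other genes named beside these were chosen after their values were seen. The members and lists were chosen with earlier results of these data known. The run finder, overlaps and odds ratio were tested on simulated data. Alternatives were other run lengths, overlap rules, width and TSS classes, wider mark peaks, gene distances and chromosomes. Python 3.11.15 with numpy 2.4.6, pandas 2.3.3 and scipy 1.17.1 were used. Sequences, and the own values of 2 members that the counts include, are not reported here.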

Additional observations from a re-analysis of the deposited data

Results flagged for a closer look

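The FLI1 list also held 234 peaks on chromosome Y and on unplaced or unlocalised contigs, which entered no comparison. Of these, 4 held a run of at least 4 copies (1.71%, interval 0.468 to 4.32), above the 1.28% (3 counts) that a count of 0 allows, and below the 2.69% of FLI1 peaks on chromosomes 1 to 22 and X, which the interval includes. All 4 were on contigs, and the longest run had 14 copies. The signal drew attention because it lay outside the chromosomes that were compared.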

How the results depend on the processing

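The number of members, the shares with H3K27ac or SSRP1 met or on the run, and the share with SSRP1 beside it were recomputed under alternatives. So were both odds ratios, the share of occupied runs and the count of activated genes, 55 values in all. Of these, 41 stayed within the interval of the reported value (for counts, within 1.5 times). Only an odds ratio could change direction, and 0 did. No alternative for the SSRP1 odds ratio left out both the width and the H3K27ac classes. Without either, SSRP1 met 21.1% of repeat peaks against 10.8% of others away from TSSs, and 34.5% against 44.8% within 2.5 kb of one. With an overlap of 1 bp, H3K27ac met 66.9% of repeat peaks. With 20% of both peaks it met 43.5%, and the odds ratios were 2.18 for H3K27ac and 0.277 for SSRP1. With only mark peaks at or above their median width, H3K27ac met 47.9%, SSRP1 met 11.5% and SSRP1 lay beside the run in 14.9%, against 28.9% with all of them. Windows of 500 and 2000 bp gave 25.3% and 32.3% for the latter. With width deciles the SSRP1 odds ratio was 0.256, and without width strata it was 0.649, against 6.80 for H3K27ac. Occupied runs were 21.4% of those with at least 8 copies and 33.7% of those with at least 15. Requiring the whole run inside the peak, an alternative added after the data were seen, left 946 members and moved no value out of its interval. Leaving out chromosomes 3, 8, 10 and X moved none either. Strand, position, copy-number, ETS-core and per-chromosome values were not recomputed. A stricter peak threshold was not run, since the lists hold no score. No paired analysis was possible because each target has 1 library and no result comes from a test. Depth, peak height and the placement of reads in repeats limit every value and could not be assessed from positions alone. Counting intervals treat peaks as independent, although neighbouring peaks share a locus.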
